A study of Mus musculus with 22 samples.

Results

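Bmal1 KO regulatory T cells (Tregs) were compared with Bmal1 WT Tregs from the visceral fat of mice that had been fed a high fat diet for 4 weeks. The comparison holds 6 of the 22 RNA-seq samples of the series, 3 labelled KO and 3 labelled WT, chosen by their labelled age of 18 weeks and their diet. All 6 samples were Foxp3-YFP+ cells from male C57BL/6 Foxp3.Cre-YFP mice, taken at ZT0, the hour at which the lights come on, and the high fat diet followed 14 weeks of lean diet. WT and KO mice thus shared the Foxp3.Cre-YFP strain, in which Cre and YFP are made where Foxp3 is active. Each library was made from 1000 cells that had been sorted in succession on the same reporter. The labels give neither the Bmal1 allele nor the part of the gene that was removed. Nor do they say that the libraries of a group came from separate animals, so the p-values measure the spread between libraries. The KO and WT groups on lean diet were 18 weeks old, and those after 16 weeks of high fat diet were 30 weeks old. With 3 libraries each, they served to show where the 4-week effect differed. Since the 16-week mice were older, age and weeks of diet cannot be told apart in comparisons with them.

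BMAL1, encoded by Arntl, pairs with CLOCK or NPAS2 and binds E-box sequences, and so drives the daily transcription of the Per and Cry genes and of Nr1d1 and Nr1d2. The products of Nr1d1 and Nr1d2, REV-ERB alpha and beta, repress genes with ROR elements, among them Arntl, Npas2 and Cry1, while PER and CRY proteins inhibit BMAL1 itself. D-box elements form a further arm of the clock, bound by the activators DBP, TEF and HLF and by the repressor NFIL3. Tregs of visceral fat are a distinct population that depends on PPAR gamma and the IL-33 receptor ST2, and they are known for restraining inflammation of the tissue.

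Clock elements were looked for in the sequence before the start sites of 9 clock genes and of Furin, Art2b and Dst. The 4 windows below were chosen after that search, those of Cry1, Nr1d2 and Per3 because they hold a motif and that of Nr1d1 as a clock gene past the threshold without one. Each window is the 250 bases before a RefSeq start (GRCm38.p6), 5′ to 3′ on the strand of the gene, with motif matches in capitals. The motifs searched on both strands were the E-box CACGTG, the D-box TTATGNAA, and AGGTCA, the core of the elements bound by REV-ERB and ROR. The Cry1 window (chr10:85185055-85185304, minus strand) held an E-box that begins 60 bases before the start. The Nr1d2 window (chr14:18239107-18239356, minus strand) held AGGTCA at 77 bases. The Per3 window (chr4:151044666-151044915, minus strand) held D-boxes at 205 and 158 bases. The Nr1d1 window (chr11:98775378-98775627, minus strand) held none of the 3 motifs.
Cry1: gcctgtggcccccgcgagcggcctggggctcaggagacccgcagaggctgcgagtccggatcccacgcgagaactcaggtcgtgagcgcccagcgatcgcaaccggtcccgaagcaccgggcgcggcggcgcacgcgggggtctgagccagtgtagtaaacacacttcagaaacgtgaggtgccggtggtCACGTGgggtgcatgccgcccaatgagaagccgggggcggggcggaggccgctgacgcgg
Nr1d2: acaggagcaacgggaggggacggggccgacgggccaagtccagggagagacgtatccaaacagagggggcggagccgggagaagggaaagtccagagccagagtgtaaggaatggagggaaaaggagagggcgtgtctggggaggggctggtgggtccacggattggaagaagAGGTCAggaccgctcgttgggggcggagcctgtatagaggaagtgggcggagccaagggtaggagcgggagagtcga
Per3: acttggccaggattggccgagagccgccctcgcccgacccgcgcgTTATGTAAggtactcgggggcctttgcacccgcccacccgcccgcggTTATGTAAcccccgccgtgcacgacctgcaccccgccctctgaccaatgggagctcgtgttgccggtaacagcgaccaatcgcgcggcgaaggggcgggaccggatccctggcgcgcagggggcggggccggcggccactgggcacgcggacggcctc
Nr1d1: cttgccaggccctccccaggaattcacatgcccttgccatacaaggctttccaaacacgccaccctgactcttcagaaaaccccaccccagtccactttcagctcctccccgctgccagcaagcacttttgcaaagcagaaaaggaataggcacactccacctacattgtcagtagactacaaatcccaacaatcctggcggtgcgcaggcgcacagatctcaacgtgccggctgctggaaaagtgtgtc
Of 32851 windows of this length in the RefSeq table, 6.02% held the E-box, 3.07% the D-box and 14.0% AGGTCA. The windows of Npas2, also past the threshold, and of Furin, Art2b, Dst, Cry2, Hlf and Arntl held none of the motifs either, and 1 of 3 Clock windows held AGGTCA. These matches are a description of the letters in the windows, and elements farther away were not searched.

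Total counts ran from 2101241 to 2526632 in the WT libraries and from 2752927 to 3001591 in the KO libraries, so that every KO library was deeper than every WT library. Genes with at least 1 count numbered 18969 to 19286 in WT and 20614 to 21901 in KO. The part of this depth gap in the results was not tested. Levels are given as CPM, read counts divided by each library's TMM-corrected size and multiplied up to a shared total. WT library 3 stood apart from the other 5 on the first principal component (score 52.6, against -24.7 to 7.13), which held 29.1% of the variance. On the second component, with 20.0% of the variance, WT libraries scored 12.5 to 22.5 and KO libraries -32.1 to -2.07. The part of the depth gap in that split was not tested. A count of 0 allows up to 3 counts, or 0.993 to 1.52 CPM in these libraries. PCR copies were not marked, so these limits cover counting error only. As in any bulk sample, fewer cells with a transcript and less of it per cell cannot be told apart.

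The libraries carried the transcripts of the sorted cell. Foxp3, the lineage factor of Tregs, was at 527, 516 and 585 CPM in WT libraries 1, 2 and 3 and at 567, 567 and 575 CPM in the KO libraries, which lay within the WT range. Il2ra, the alpha chain of the IL-2 receptor, was at 509, 509 and 488 CPM in WT and 864, 678 and 682 CPM in KO. The KO libraries were the higher for Il2ra without overlap, but the difference did not pass the test (log2 fold change 0.56 ± 0.18 SE, adjusted p = 0.995). Cd8a was at 0 in all 6 libraries, and Lyz2, a myeloid gene, did not exceed 3.55 CPM.

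Arntl itself did not separate the groups. Its counts gave 78.8, 69.0 and 109 CPM in WT and 84.2, 88.1 and 93.3 CPM in KO, with the KO values inside the WT range (log2 0.05 ± 0.17, adjusted p = 0.999). The count covers the whole gene (mm10 chromosome 7, 113207465 to 113314126), with the antisense Gm45355 overlapping it. Since the removed part is not known, the count checks nothing about the labels.

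The core clock held 4 of the 8 genes that changed between KO and WT Tregs after 4 weeks of high fat diet. The REV-ERB genes Nr1d2 and Nr1d1 fell to a small fraction of their WT level, while Npas2 and Cry1, which REV-ERB represses, rose. Outside the clock, Furin and Dst rose and Art2b fell. In all, 8 of 11698 genes tested passed an adjusted p of 0.05 (0.0684%), 5 higher in KO (0.0427%) and 3 lower (0.0256%). The remaining gene, the predicted Gm3617, lies inside Npas2 on the same strand. Without adjustment, 540 genes (4.62%) had a p under 0.05, 276 higher in KO (2.36%) and 264 lower (2.26%), and 50.2% of all genes had a positive fold change.

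**Figure D1:**
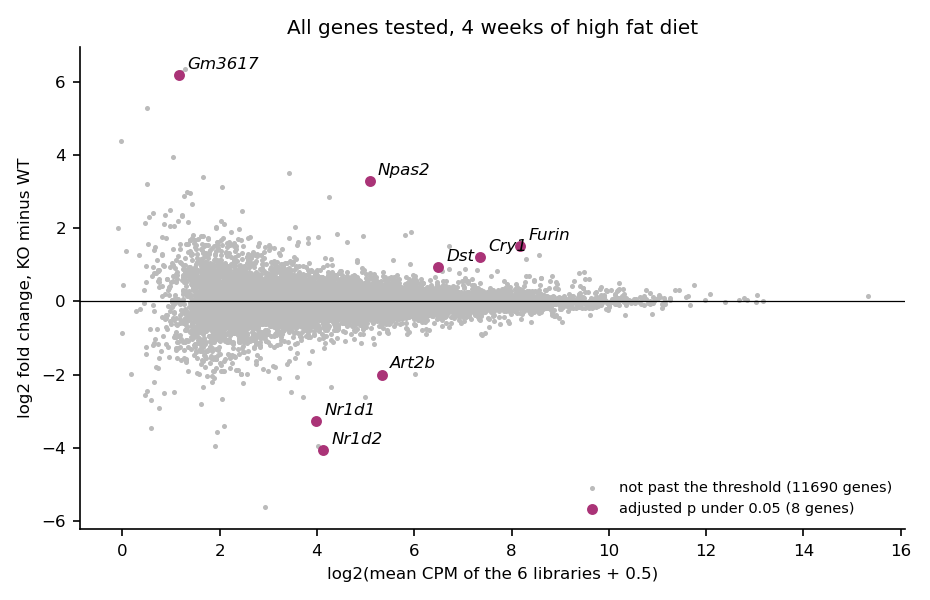
Log2 fold change of KO over WT after 4 weeks of high fat diet (y axis) against the log2 mean CPM of the 6 libraries plus 0.5 (x axis) for each of the 11698 genes tested, with the 8 genes past the threshold named. Nr1d2, Nr1d1 and Art2b lie below 0 and Cry1, Npas2, Furin, Dst and Gm3617 above it, while many genes of low level with folds as large did not pass.

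Nr1d2 encodes REV-ERB beta. It was at 38.3, 33.7 and 24.3 CPM in the WT libraries and at 0.748, 2.65 and 2.20 CPM in the KO libraries, which rest on 2, 8 and 6 counts. All KO libraries were far below all WT libraries, and the level was 16.6-fold lower (log2 -4.06 ± 0.46, adjusted p = 0.000227). Nr1d1, which encodes REV-ERB alpha, was at 25.3, 33.3 and 24.9 CPM in WT and 1.12, 4.30 and 2.94 CPM in KO. It was 9.70-fold lower without overlap (log2 -3.28 ± 0.46, adjusted p = 0.00279). Thra, the thyroid hormone receptor gene that overlaps Nr1d1 on the opposite strand, was at 13.0, 13.9 and 15.2 CPM in WT and 8.60, 8.94 and 10.3 CPM in KO (log2 -0.59 ± 0.32, adjusted p = 0.999). The library kit does not mark strand, so reads in the overlap cannot be told apart. Nr1d2 lies on mm10 chromosome 14 (18204054 to 18239127) and Nr1d1 on chromosome 11 (98767932 to 98775333).

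The genes that REV-ERB represses went the other way. Cry1, whose protein inhibits the BMAL1 complex, was at 111, 90.9 and 94.3 CPM in WT and at 226, 237 and 219 CPM in KO (chromosome 10, 85131700 to 85185064). The KO libraries differed little among themselves, and Cry1 was 2.30-fold higher (log2 1.20 ± 0.14, adjusted p = 0.000227). Npas2, a partner of BMAL1 that can stand in for CLOCK, rose from 9.57, 5.95 and 2.54 CPM in WT to 64.0, 56.0 and 62.5 CPM in KO (chromosome 1, 39193731 to 39363236). It was 9.73-fold higher, with no overlap (log2 3.28 ± 0.48, adjusted p = 0.00341). Gm3617, inside Npas2, had no count in any WT library and 3.37, 2.98 and 4.04 CPM in KO. Against 3 counts in each WT library it was at least 2.69-fold higher (adjusted p = 0.0269), and its reads cannot be told apart from reads of Npas2. Nr1d2, Nr1d1, Cry1 and Npas2 passed the threshold under all 14 alternative settings, including each library left out in turn. Gm3617 passed in 3 of 12 and in none of the 6 fits without a library (adjusted p 0.105 to 0.25).

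**Figure D2:**
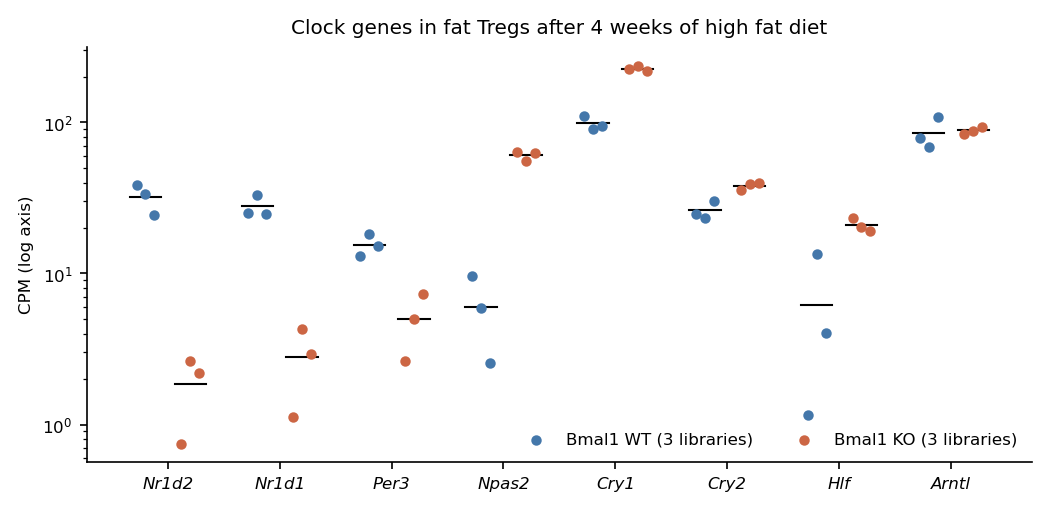
Levels of 8 clock genes in each library after 4 weeks of high fat diet, in CPM on a log axis, with WT in blue, KO in orange and the mean of 3 libraries as a bar. Nr1d2, Nr1d1 and Per3 were lower and Npas2, Cry1, Cry2 and Hlf higher in every KO library than in every WT library, and Arntl overlapped.

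The other genes listed as driven by BMAL1-CLOCK did not pass the test and did not share a direction. Of 13 listed genes that BMAL1-CLOCK drives, 12 were tested (Bhlhe41 was too low), 2 were called, both lower, and 9 had a negative fold change, with a median log2 fold change of -0.33 against 0.0012 for all genes. Per3, a period gene, was at 13.0, 18.3 and 15.2 CPM in WT and 2.62, 4.97 and 7.35 CPM in KO (log2 -1.63 ± 0.39, adjusted p = 0.473). Its ranges did not overlap, and in all 4 of the 12 genes, the 2 calls included, had a KO range below the WT range, against 4.86% of all genes. Per1 (log2 -0.26) and Per2 (log2 -0.25), the other period genes, overlapped between the groups. Per2 was low and uneven, at 7.65, 5.55 and 5.07 CPM in WT and 10.5, 0 and 5.14 CPM in KO. Ciart (log2 -0.22), Bhlhe40 (log2 -0.53) and Usp2 (log2 -0.67) overlapped as well.

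Among the D-box factors, the values went in opposite directions. Dbp was at 9.19, 9.52 and 10.1 CPM in WT and 7.86, 5.63 and 8.45 CPM in KO (log2 -0.39 ± 0.35, adjusted p = 0.999). Tef was at 19.9, 15.1 and 18.3 CPM in WT and 25.8, 23.2 and 21.7 CPM in KO (log2 0.41 ± 0.22, adjusted p = 0.999). Hlf was uneven in WT, at 1.15, 13.5 and 4.06 CPM, and even in KO, at 23.2, 20.2 and 19.1 CPM (log2 1.72 ± 0.52, adjusted p = 0.91). It passed the test without WT library 2, the WT library with the highest level (adjusted p = 0.0409). Cry2, the other cryptochrome gene, was at 24.9, 23.4 and 30.4 CPM in WT and 35.5, 39.4 and 39.7 CPM in KO (log2 0.55 ± 0.24, adjusted p = 0.999). KO libraries were the higher for Cry2, Tef and Hlf without overlap, 3 of 12 members against 4.87% of all genes.

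Of the 6 genes listed as under REV-ERB and ROR control, all were tested, 2 were called (Cry1 and Npas2) and 5 had a positive fold change, with a median of 0.59. Clock, which encodes the usual partner of BMAL1, was at 25.6, 23.0 and 14.2 CPM in WT and 28.4, 26.2 and 40.8 CPM in KO (log2 0.59 ± 0.27, adjusted p = 0.999). Nfil3, the D-box repressor, was at 62.4, 82.5 and 45.6 CPM in WT and 131, 63.9 and 94.1 CPM in KO (log2 0.59 ± 0.26, adjusted p = 0.999), so its groups overlapped. Rora, which encodes an activator at ROR elements, overlapped too (log2 0.37). The 12 kinases and ubiquitin ligases that modify clock proteins had 0 calls, 5 positive fold changes and a median of -0.09.

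Furin rose. It encodes a proprotein convertase that cleaves precursors such as that of TGF-beta (chromosome 7, 80388585 to 80405436). It was at 176, 136 and 138 CPM in WT and at 556, 222 and 502 CPM in KO. KO library 2 lay much closer to WT than KO libraries 1 and 3, though the ranges did not overlap. Furin was 2.84-fold higher (log2 1.50 ± 0.27, adjusted p = 0.0269). It passed in 7 of 14 alternatives and, of the 6 fits that leave out a library, only in that without KO library 2 (adjusted p = 0.000871); the other 5 reached up to 0.256. Gm44851, which overlaps Furin on the opposite strand, followed it library by library, at 29.5, 22.6 and 20.8 CPM in WT and 116, 38.7 and 105 CPM in KO (log2 1.82 ± 0.47, adjusted p = 0.597). Since the kit does not mark strand, reads in the overlap of Furin and Gm44851 cannot be told apart.

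No other gene of the TGF-beta list passed the test. Of 20 listed genes 17 were tested, Furin was the only call, 13 fold changes were positive and the median was 0.15. Tgfb1, the cytokine gene, was at 48.6, 51.6 and 39.1 CPM in WT and 69.2, 34.1 and 55.5 CPM in KO (log2 0.18 ± 0.24, adjusted p = 0.999). Tgfb1 thus overlapped between groups, and its lowest KO value was also in library 2. Tgfbr2, a receptor chain, was at 348, 330 and 275 CPM in WT and 351, 354 and 410 CPM in KO, just above the WT range (log2 0.23 ± 0.20, adjusted p = 0.999). Furin and Tgfbr2 were the 2 of 17 tested members with separate ranges, both higher in KO. Over all genes, 4.87% had the KO range above the WT range and 9.73% had separate ranges in either direction. Lrrc32, which encodes GARP, the docking receptor of latent TGF-beta on Tregs, was spread from 11.5 to 118 CPM in WT and from 9.73 to 139 CPM in KO. Smad2, Smad3 and Smad4, the signal transducers, had fold changes of 0.15 to 0.17 on the log2 scale with overlapping values.

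Art2b fell. It encodes a GPI-anchored ADP-ribosyltransferase of the T cell surface that modifies the ATP receptor P2X7 when extracellular NAD is present (chromosome 7, 101576970 to 101585600). It was at 82.3, 42.8 and 65.9 CPM in WT and 15.3, 17.9 and 14.3 CPM in KO, so that the KO libraries were close to each other and all below WT. The level was 4.00-fold lower (log2 -2.00 ± 0.35, adjusted p = 0.0269). Art2b passed in 7 of 14 alternatives and, of the 6 fits that leave out a library, only in that without WT library 2 (adjusted p = 0.0197); the highest was 0.256. Its close copy Art2a was at 14.9, 18.3 and 12.7 CPM in WT and 7.86, 3.97 and 2.20 CPM in KO (log2 -1.71 ± 0.55, adjusted p = 0.999). Reads of such near-identical genes may have been split or dropped in counting.

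Genes that act with Art2b did not pass the test. Of the 16 listed purinergic and ADP-ribosylation genes 15 were tested, Art2b was the only call, 10 fold changes were negative and the median was -0.17. P2rx7, the receptor that Art2b modifies, was at 163, 133 and 201 CPM in WT and 97.6, 172 and 172 CPM in KO (log2 -0.17 ± 0.27, adjusted p = 0.999). Entpd1, the CD39 ectonucleotidase that degrades ATP, was at 102, 169 and 155 CPM in WT and 75.2, 125 and 94.8 CPM in KO (log2 -0.52 ± 0.30, adjusted p = 0.999). Both overlapped between groups, as did Nt5e (CD73) and Cd38, an NAD-consuming enzyme, at log2 0.09 and -0.01.

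Dst rose. It encodes dystonin, a giant linker of cytoskeletal filaments (chromosome 1, 33908225 to 34308661), and 7 annotated genes overlap it, 4 of them on the opposite strand. Dst was at 60.5, 69.4 and 55.3 CPM in WT and 101, 116 and 137 CPM in KO, with every KO library above every WT library. It was 1.90-fold higher (log2 0.93 ± 0.17, adjusted p = 0.0269). Dst passed in 6 of 14 alternatives and, of the 6 fits that leave out a library, only in that without KO library 1 (adjusted p = 0.0337); the highest was 0.332. Of 14 listed cytoskeletal linkers 13 were tested, Dst was the only call, 10 fold changes were positive and the median was 0.13. In 5 of the 13 (Dst, Plec, Ahnak, Vim and Msn) the KO range lay above the WT range, against 4.87% of all genes. Plec, another plakin, was at 792, 886 and 675 CPM in WT and 968, 1015 and 1131 CPM in KO (log2 0.40 ± 0.17, adjusted p = 0.999). Vim, the intermediate filament vimentin, was at 2646, 3587 and 2516 CPM in WT and 4127, 4007 and 3781 CPM in KO (log2 0.45 ± 0.23, adjusted p = 0.999).

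**Figure D3:**
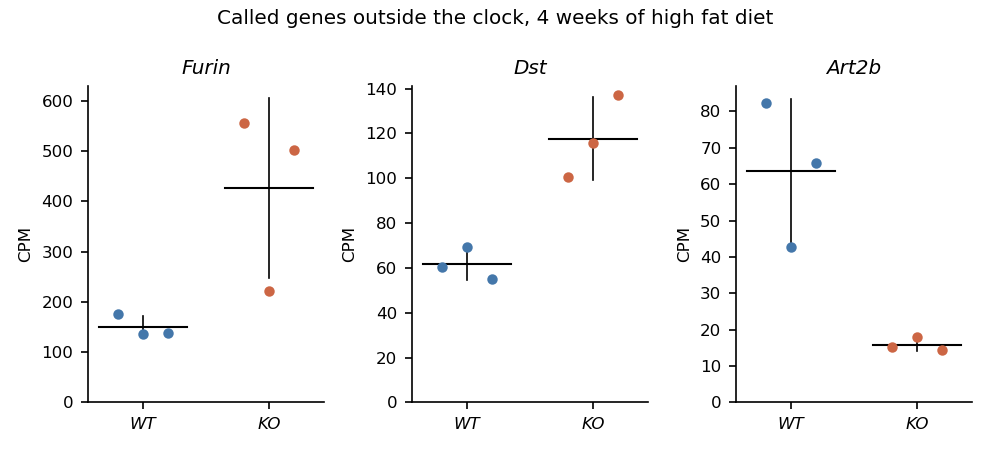
Furin, Dst and Art2b in each library after 4 weeks of high fat diet, in CPM, with the mean (horizontal bar) and SD (vertical line) of 3 libraries per genotype. KO library 2 is the low Furin value among the KO libraries (222 CPM), and no KO value overlaps a WT value in any of the 3 panels.

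Whether the KO effect at 4 weeks differed from that on the other diets was tested directly, with no gene past the threshold in edgeR. The difference from the lean diet had 0 calls, with 534 genes (4.56%) at an unadjusted p under 0.05, and the difference from 16 weeks had 0 calls, with 784 genes (6.7%). DESeq2 called 0 and 1, and limma-voom 0 and 0. Nr1d2 had log2 fold changes of -5.00 on lean diet, -4.06 at 4 weeks and -4.00 at 16 weeks, and Cry1 1.32, 1.20 and 1.24. Npas2 had 3.46, 3.28 and 2.04, and its mean KO level was 60.8 ± 4.26 CPM at 4 weeks and 15.8 CPM at 16 weeks. Per3 went from -1.63 at 4 weeks to -4.28 at 16 weeks, a difference of 2.65 ± 0.63 (adjusted p = 0.502).

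The 3 called genes outside the clock had different profiles over the diet groups. Furin had a log2 fold change of 1.39 on lean diet, 1.50 at 4 weeks and 0.38 at 16 weeks, and the 4-week effect exceeded that at 16 weeks by 1.12 ± 0.38 (adjusted p = 0.67). Dst had 0.13, 0.93 and 0.05, so that its 4-week effect was greater by 0.80 ± 0.24 than on lean diet (adjusted p = 0.9997) and by 0.88 ± 0.23 than at 16 weeks (adjusted p = 0.571). Art2b had -1.48, -2.00 and -1.07, and neither difference passed (adjusted p = 0.9997 and 0.752). Across all 11698 genes, the KO effects at 4 weeks correlated with those on lean diet at r = 0.14 and with those at 16 weeks at r = 0.050. Over the 7127 genes with a mean of at least 20 CPM these were 0.30 and 0.11, and 0.24 and 0.067 without the clock list and the genes past the threshold. The diets share no library, and genes are not independent replicates, so these are descriptions.

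**Figure D4:**
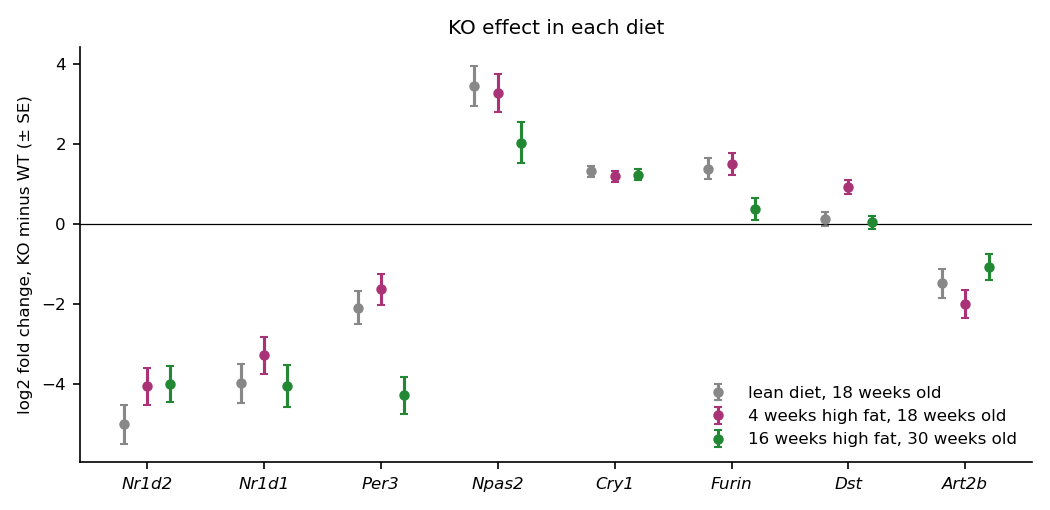
Log2 fold change of KO over WT with its standard error on lean diet, after 4 weeks and after 16 weeks of high fat diet, for 7 genes past the threshold at 4 weeks (Gm3617, without counts in WT, is left out) and Per3. Dst stands off 0 at 4 weeks (0.93) and lies near 0 on the other diets (0.13 and 0.05), with neither difference past the threshold.

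Next below the threshold came genes with separate ranges in the 2 genotypes, taken as the 10 of smallest p in each direction with at least 5 CPM in a group. Predicted genes (such as Gm44851, Gm4759 and Gm1966), Rik clones, pseudogenes and immune receptor segments were left out of that choice. The higher ones were Mtres1, Zswim4, Dhx40, Krt83, Mmp9, Il7r, Il5, Dpy19l3, Cd44 and Mynn, with adjusted p values from 0.418 to 0.885. Mmp9, a matrix metalloproteinase, was at 189, 261 and 215 CPM in WT and 529, 508 and 559 CPM in KO (log2 1.26 ± 0.35, adjusted p = 0.779). Cd44, the hyaluronan receptor of activated T cells, was at 514, 526 and 448 CPM in WT and 903, 841 and 781 CPM in KO (log2 0.76 ± 0.22, adjusted p = 0.878). Il5, a type 2 cytokine, was at 17.2, 42.8 and 15.7 CPM in WT and 125, 68.9 and 92.6 CPM in KO (log2 1.90 ± 0.53, adjusted p = 0.781). For Il5 the KO effect was -1.71 at 16 weeks, and the difference between 4 and 16 weeks was 3.61 ± 0.79 (adjusted p = 0.502). Mmp9, Cd44 and Pcsk1 were called when only these 6 libraries entered the fit, while Furin, Dst and Gm3617 were not.

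The lower ones were Ncmap, Per3, Cdk5rap3, Tktl1, Daxx, Trp53inp2, Ranbp9, Pltp, Pim2 and Prkcsh, with adjusted p values from 0.325 to 0.797. Ncmap, a gene known from myelinating Schwann cells, was at 28.7, 44.4 and 15.7 CPM in WT and 2.62, 2.65 and 0.367 CPM in KO (log2 -3.94 ± 0.90, adjusted p = 0.325). On lean diet and at 16 weeks its fold changes were -0.07 and -0.08, and the difference from lean was -3.88 ± 1.15 (adjusted p = 0.9997). The lean libraries were uneven, at 45.7, 21.3 and 13.0 CPM in WT and 16.1, 60.7 and 1.41 CPM in KO. Ncmap was also called with the 6 libraries alone. Trp53inp2, an autophagy factor, was at 24.5, 21.4 and 26.9 CPM in WT and 8.23, 9.60 and 12.1 CPM in KO (log2 -1.27 ± 0.34, adjusted p = 0.687). Pim2, a survival kinase, was at 39.4, 48.8 and 51.7 CPM in WT and 31.0, 27.8 and 29.4 CPM in KO (log2 -0.66 ± 0.19, adjusted p = 0.793).

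The genes of the fat Treg programme had 0 calls. Of 22 genes of the adipose Treg signature, all tested, 17 had a positive fold change (50.2% of all genes did), with a median of 0.27. Il1rl1, which encodes ST2, was at 585, 661 and 318 CPM in WT and 904, 905 and 922 CPM in KO (log2 0.80 ± 0.33, adjusted p = 0.999), and WT library 3 was the lowest. Pparg, the lineage factor of fat Tregs, was at 54.0, 53.6 and 22.8 CPM in WT and 67.0, 51.0 and 55.5 CPM in KO (log2 0.40 ± 0.42, adjusted p = 0.999). Gata3, which supports ST2 expression, was at 1650, 1636 and 1363 CPM in WT and 2154, 1918 and 1684 CPM in KO (log2 0.31 ± 0.18, adjusted p = 0.999). The signature's median was 0.42 on lean diet and -0.45 at 16 weeks, a difference between groups that was not tested for the list.

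Core Treg identity genes, 18 of 18 tested, had 0 calls, 6 positive fold changes and a median of -0.08. The coinhibitory receptor gene Tigit was at 509, 581 and 535 CPM in WT and 398, 489 and 363 CPM in KO (log2 -0.38 ± 0.23, adjusted p = 0.999). Resting and lymphoid T cell genes had a median of -0.11 over 15 tested and 0 calls. Within that list Il7r, the IL-7 receptor alpha chain, was at 282, 279 and 290 CPM in WT and 457, 364 and 435 CPM in KO (log2 0.56 ± 0.16, adjusted p = 0.779). Bach2, a repressor of effector differentiation, was at 15.7, 13.1 and 19.3 CPM in WT and 6.36, 8.94 and 9.55 CPM in KO (log2 -0.94 ± 0.28, adjusted p = 0.893). Both had separate ranges, in opposite directions. Without WT library 3 the medians of the last 2 lists changed sign, to 0.01 and 0.21.

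Among T helper effector genes, 12 of 21 were tested, 0 were called and 7 had a positive fold change. Their median was 0.13, and its sign turned in 3 fits without a library. In 2 of the 12, Il5 among them, the KO range lay above the WT range, against 4.87% of all genes. In 2 others, the type 1 genes Tbx21 and Ifng, it lay below the WT range, against 4.86% of all genes. Tbx21, which encodes T-bet, was at 171, 259 and 247 CPM in WT and 95.0, 146 and 130 CPM in KO (log2 -0.86 ± 0.29, adjusted p = 0.999). Ifng was at 16.5, 23.8 and 24.3 CPM in WT and 5.61, 10.3 and 15.4 CPM in KO (log2 -1.04 ± 0.41, adjusted p = 0.999). Neither passed the test. Interferon-stimulated genes had 0 calls among 27 tested, and 25 of the 27 had a negative fold change, with a median of -0.41. In 4 of them (Ifit3, Mx1, Ddx58 and Trim30a) every KO library was below every WT library, against 4.86% of all genes. Of these, Trim30a is a tripartite motif gene, a family with members near Arntl that were low in KO libraries and are described below. Mx1, an antiviral GTPase gene, was at 19.1, 11.5 and 19.8 CPM in WT and 1.12, 8.28 and 7.72 CPM in KO (log2 -1.54 ± 0.60, adjusted p = 0.999). The median of the list stayed between -0.59 and -0.25 under the 14 alternatives, and it was -0.21 on lean diet and 0.25 at 16 weeks. Summed over the list, the level was 1860, 2511 and 3009 CPM in WT and 1584, 2015 and 2082 CPM in KO, so the groups overlapped.

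Summed markers of some other cells had lower means in KO, with ranges that overlapped between genotypes and 0 calls among their members. The summed cytotoxic T and NK cell markers, 12 genes of which Cd8a was at 0 in all libraries, were at 362 to 692 CPM in WT and 233 to 412 CPM in KO. Most of that sum came from Nkg7, Ccl5 and Gzmb, and all 5 members tested had a negative fold change. The summed dendritic cell and class II markers were at 105 to 163 CPM in WT and 58.4 to 117 CPM in KO, with 5 of 6 tested members negative, while Itgax, Flt3 and Clec9a did not exceed 1.98 CPM. B cell markers summed to 465 to 815 CPM in WT and 399 to 510 CPM in KO, nearly all of it Ighm, with Ms4a1 at no more than 1.50 CPM. The part of these markers in the values of the type 1 and interferon genes was not tested.

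Markers of the remaining cell types were low or overlapped as well. Macrophage and monocyte markers summed to 21.8 to 24.3 CPM in WT and 16.5 to 22.8 CPM in KO, and endothelial markers, nearly all Pecam1, to 71.4 to 136 and 87.1 to 119 CPM. Stromal markers reached at most 7.72 CPM, adipocyte markers 5.30 CPM, red blood cell markers 3.74 CPM and granulocyte and mast cell markers 1.99 CPM. Mesothelial and epithelial markers summed to 95.9 to 197 CPM in WT and 135 to 214 CPM in KO, from Lrrn4 and Epcam, with Upk3b, Krt19, Krt8 and Wt1 at 0 in all libraries.

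**Figure D5:**
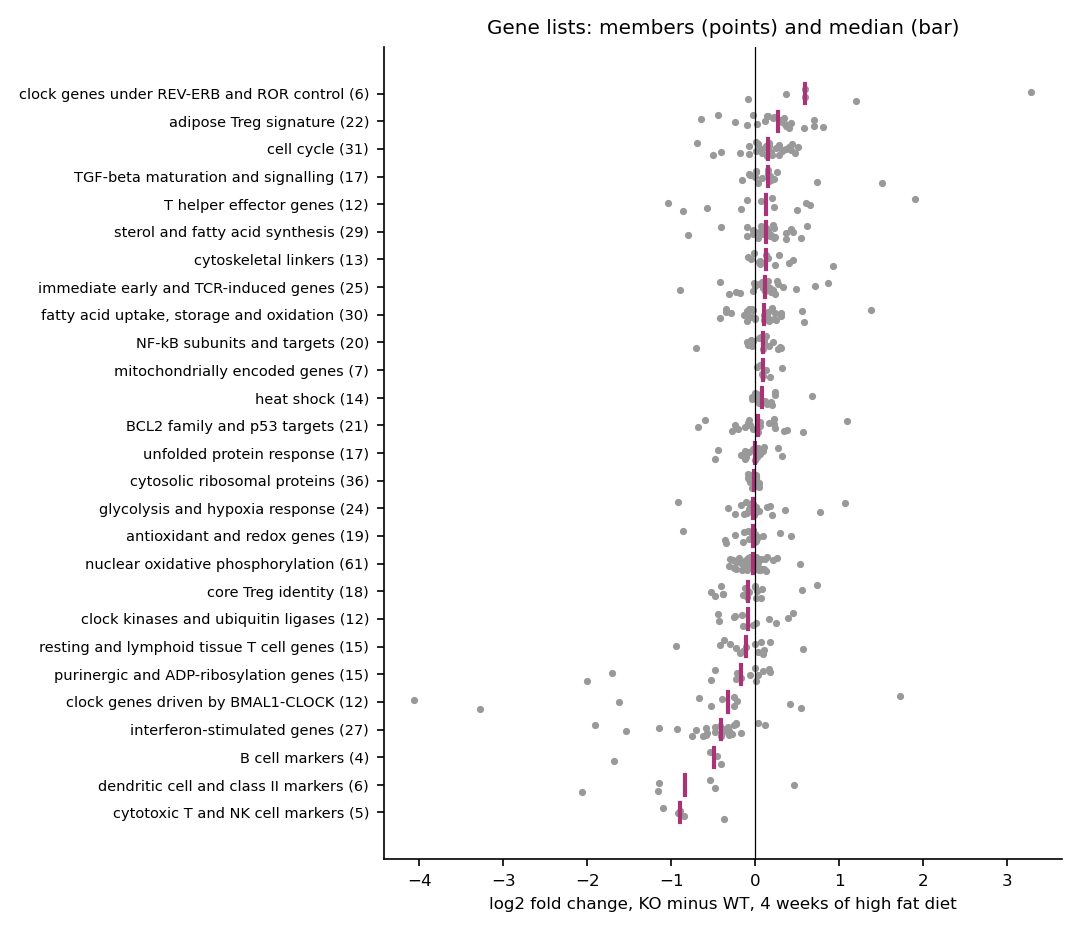
Log2 fold change of KO over WT after 4 weeks of high fat diet (x axis) for the tested members of each gene list with at least 4 of them (points), with the median of the list as a bar and the median of all genes as a vertical line. Number of members tested is in brackets, and the interferon-stimulated genes lie mostly below 0 (25 of 27).

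Activation, proliferation and metabolism lists had 0 calls. Immediate early and TCR-induced genes had 17 of 25 positive and a median of 0.11 (-0.01 without KO library 1), against 0.49 on lean diet and -0.44 at 16 weeks. Fosb, an AP-1 subunit, was at 163, 136 and 139 CPM in WT and 193, 238 and 283 CPM in KO (log2 0.71 ± 0.22, adjusted p = 0.958). Cell cycle genes had 25 of 31 positive with a median of 0.15, which changed sign without WT library 3 or KO library 1 (range over alternatives -0.14 to 0.34). Nuclear oxidative phosphorylation genes had a median of -0.03 over 61 tested, glycolysis genes -0.03 over 24, and cytosolic ribosomal protein genes -0.02 over 36. The medians of sterol and fatty acid synthesis genes (0.13 over 29), fatty acid uptake and oxidation genes (0.10 over 30) and NF-kB genes (0.09 over 20) were also near that of all genes. Heat shock (0.08), mitochondrially encoded (0.09), unfolded protein response (-0.01), antioxidant (-0.03) and BCL2 family and p53 genes (0.03) completed the lists. Under some alternatives the sign turned for the medians of oxidative phosphorylation (at most to 0.01), ribosomal protein (0.09), fatty acid uptake and oxidation (-0.02), heat shock (-0.04), mitochondrially encoded (-0.01), unfolded protein response (0.02) and BCL2 family and p53 genes (-0.12). All of these turned in at least 1 fit without a library. Cdkn1a, the p21 cell cycle inhibitor and a p53 target, was at 165, 168 and 220 CPM in WT and 271, 244 and 303 CPM in KO (log2 0.57 ± 0.19, adjusted p = 0.999).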

How the data were processed

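RNA was measured in double-sorted Foxp3-YFP+ cells, primed with oligo(dT), amplified by PCR, tagmented without strand marks and read as pairs of 38 bases, per the labels' protocols. Per the submitters' processing notes, STAR 2.7.3a, the build mm10 and featureCounts were used. How featureCounts treated strand is not given in the sources used here. What the authors deposited is a table of unscaled whole-number counts for 55011 gene symbols. Of the symbols, 96.2% were found in GENCODE M21, used for positions.

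Groups came from the labels. The 18 diet libraries were fitted together, so that all groups share 1 estimate of spread (12 residual degrees of freedom), and the 4 transfer libraries were not used. Genes passing filterByExpr (minimum count 10) entered the quasi-likelihood F test of edgeR 4.0.16 (R 4.3.3) with TMM factors, and p-values were Benjamini-Hochberg adjusted over all 11698 genes, with 0.05 as the threshold. Contrasts were KO against WT at 4 weeks and its differences from lean diet and from 16 weeks. Alternatives were other scaling (RLE, upper quartile), no filter, minimum count 30, DESeq2 1.42.0, limma-voom (limma 3.58.1), the 6 libraries alone, a replicate block and each library left out.

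Named were Arntl, the clock lists, genes past the threshold, the 10 genes per direction described above, up to 4 members per list by smallest p, and sort check genes. Other list members, Thra, Gm44851, Stard8, Siglech, Pcsk1 and the genes near Arntl were chosen after their values were seen. A few genes under this rule are not reported here. The comparison, lists and rules were chosen with earlier results of these data known. Lists have counts and medians only. With 3 libraries against 3, an exact permutation test cannot go below a p of 0.1. Replicate libraries differed beyond counting noise, so none was merged.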

Additional observations from a re-analysis of the deposited data

How the results depend on the processing

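At 4 weeks, 8 genes (5 up, 3 down) were past the threshold. Their number was 75 (45 and 30) with no filter on low counts, 4 (2 higher) with limma-voom, and 4 to 6 (2 to 3 higher) with a library left out. It was 5 (3 higher) with the replicate block. Nothing in the labels says that the numbers pair the libraries. Deviations from the group mean correlated at 0.104, -0.042 and 0.017 between same-numbered WT and KO libraries. Between differently numbered ones they correlated at -0.143 to 0.132, so these values cannot decide whether the numbers pair the libraries. RLE and upper quartile scaling and DESeq2 gave 8, a minimum count of 30 gave 7, and the 6 libraries alone 9. The 9 did not include Furin, Dst or Gm3617, and the 8 with DESeq2 held Stard8 but not Gm3617. The difference from lean diet gave 0 genes except 22 with no filter. The difference from 16 weeks gave 0, but 211 with no filter, 1 with DESeq2, 3 with the replicate block and 0 to 3 with a library left out. Among the named genes the sign changed for Ikzf2 (0.0039 with no filter, -0.096 to 0.11 with a library left out), and, with a library left out, Arntl (-0.080 to 0.26), Per2 (-1.27 to 0.34) and Cd4 (-0.16 to 0.012). The cause of these changes was not tested. Genes at a few CPM, such as Gm3617, are limited by depth.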

Other observations

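Genes near Arntl on chromosome 7 were counted apart from the rest. Within 20 Mb of Arntl, 272 genes were tested, 1 was called (Art2b, 11.6 Mb away) and 10.3% had ranges that did not overlap, against 9.46% of 624 genes elsewhere on the chromosome and 9.70% of 10638 genes on other chromosomes. An unadjusted p under 0.05 was found for 7.72%, 5.77% and 4.46% of these genes.

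A run of tripartite motif genes, which include antiviral restriction factors, lay about 9 Mb from Arntl and was low or unseen in some KO libraries. Trim12a was at 63.9, 61.1 and 35.5 CPM in WT and 26.9, 0 and 0 CPM in KO (log2 -2.61 ± 1.00, adjusted p = 0.999). Trim5 was at 32.1, 22.6 and 10.1 CPM in WT and 10.5, 0 and 0.367 CPM in KO, and Trim30d at 10.3, 22.2 and 20.8 CPM in WT and 8.60, 0.331 and 0.735 CPM in KO. KO library 1 was thus nearer to WT than KO libraries 2 and 3 for all 3 genes. Trim68, 10.5 Mb from Arntl, went the other way, at 27.2, 22.2 and 28.4 CPM in WT and 27.7, 44.4 and 45.2 CPM in KO (log2 0.60 ± 0.23, adjusted p = 0.999). Its ranges overlapped at 4 weeks, and KO lay above WT on lean diet and at 16 weeks. On lean diet Trim12a was at 60.1, 76.8 and 35.3 CPM in WT and 26.5, 0 and 0 CPM in KO. There Trim5 (13.4, 1.08 and 0 CPM) and Trim30d (8.59, 0.542 and 0.942 CPM) were also highest in KO library 1 among the KO libraries. After 16 weeks of high fat diet Trim12a averaged 63.9 CPM in WT and was at 0 in all KO libraries. Gm1966, 6.61 Mb from Arntl, was at 120, 124 and 64.4 CPM in WT and 54.6, 15.2 and 8.45 CPM in KO, again with KO library 1 the highest of the KO libraries (log2 -1.99 ± 0.57, adjusted p = 0.797). Gm4759 lay next to it and had the closest values within groups, 333, 296 and 264 CPM in WT and 218, 200 and 175 CPM in KO (log2 -0.59 ± 0.16, adjusted p = 0.779).

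Other genes of low level had large fold changes from few counts. Stard8 had no count in WT and 2.99, 5.63 and 2.20 CPM in KO, at least 2.80-fold higher against 3 counts in each WT library (adjusted p = 0.0594, and 0.0487 with DESeq2). Siglech, a gene of plasmacytoid dendritic cells, was at 0, 17.1 and 25.4 CPM in WT and 0.374, 0.331 and 0 CPM in KO (adjusted p = 0.893). WT library 1 was thus at the KO level for Siglech.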
